A study of Homo sapiens with 9 samples.

Results

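NF-κB was followed through the RNA of 10 genes in Ramos cells, a line established from human Burkitt's lymphoma. They are the subunits NFKB1, NFKB2, REL, RELA and RELB, the inhibitors NFKBIA, NFKBIB, NFKBIE and NFKBIZ, and the ubiquitin-editing enzyme TNFAIP3. The genes were chosen by name, and every probe annotated to them was taken, which gave 15 of the 47323 probes on the array. All 10 genes were measured, through 13 probes that were detected on 3 or more arrays of the 9, among 10307 genes tested.

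NF-κB is a family of dimeric transcription factors that are held in the cytoplasm by IκB proteins. Signals from the B cell receptor, CD40 or Toll-like receptors activate the IKK kinase complex, which marks IκBα, the product of NFKBIA, for degradation and so frees the dimers to enter the nucleus. NFKBIA and TNFAIP3 are themselves transcribed by NF-κB and act as its negative feedback, and Burkitt's lymphoma is known as a B cell lymphoma with little NF-κB activity. The arrays measure RNA only, so neither the amount nor the location of any of these proteins was measured.

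Cells were exposed for 48 h to PBS (titled NT in the labels), to human HDL at 40 nM or to HDL NPs at 40 nM, with 3 arrays per condition. Human HDL is the native, cholesterol-rich lipoprotein, and HDL NPs are synthetic particles of a gold core with apolipoprotein A-I and phospholipids, which bind the same receptor, SCARB1, and are poor in cholesterol. The arrays thus asked which RNAs differ after the synthetic particle, with native HDL and PBS as the controls. All groups are the same line, and the methods call the arrays biological replicates.

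Mean intensity per array was 228 to 278, and 33.9% to 38.1% of all probes lay above background. HDL NP replicate 1 stood apart: on it 591 genes were 1 log2 unit or more away from their mean after human HDL, against 0 to 9 on each other array. The median of 9 housekeeping genes was 0.35 above the PBS mean there, while replicates 2 and 3 of HDL NP had 0.003 and −0.05. For part of the genes, values are therefore given with and without it. Of 10 B cell markers 8 were measured, all of them on every array, while the defining marker PAX5 was above background on no array. Only 2 of 8 T cell markers (CD2 and CD247) and 2 of 9 myeloid markers (CD14 and LYZ) were measured. Of the T cell markers 1 was above background on every array, and of the myeloid markers 0 were. The T cell genes CD3E, CD3G and CD5 and the myeloid genes ITGAM, S100A9 and S100A12 were above background on no array.

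Since several of these genes are classic targets of NF-κB, their promoters were searched for the κB consensus, the 10-base DNA element that the dimers bind. Promoter windows of 300 bases (250 before the start and 50 after it, RefSeq on GRCh38.p14) were found for 8 of the 10 members, and RELB and NFKBIE had no entry. Counting both strands, and overlapping matches as 1 site, 7 of the 8 members had the consensus in at least 1 of their windows, and RELA did not. It was found in 5.91% of all 35116 windows and in 8.77% of the 8334 tested genes with a window. The match is a description of letters and not evidence that a dimer was bound in these cells. The 250 bases before the start of NFKBIA (chr14:35404750-35404999, minus strand) are shown because NFKBIA gave the most distinct values of the 10 genes, with the consensus in capitals, 81 bases before the start.
NFKBIA: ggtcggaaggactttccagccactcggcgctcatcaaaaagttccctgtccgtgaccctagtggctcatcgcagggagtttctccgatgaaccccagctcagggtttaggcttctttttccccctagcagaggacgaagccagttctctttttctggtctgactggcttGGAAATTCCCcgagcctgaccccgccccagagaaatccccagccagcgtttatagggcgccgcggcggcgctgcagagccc

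For the other members the match nearest upstream of a start is shown within at most 30 bases, again with the consensus in capitals. TNFAIP3 (chr6:137867188-137867217, plus strand) had a pair of matches, 55 and 67 bases before its start. The others are NFKB1 (chr4:102501300-102501329, plus strand), REL (chr2:60881518-60881546, plus strand), NFKB2 (chr10:102395674-102395703, plus strand), NFKBIB (chr19:38899932-38899960, plus strand) and NFKBIZ (chr3:101827757-101827786, plus strand). In REL and NFKBIB the consensus can be read on both strands, shifted by 1 base.
TNFAIP3: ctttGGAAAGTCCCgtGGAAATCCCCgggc
NFKB1: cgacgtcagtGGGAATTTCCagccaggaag
REL: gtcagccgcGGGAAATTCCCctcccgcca
NFKB2: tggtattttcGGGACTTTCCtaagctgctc
NFKBIB: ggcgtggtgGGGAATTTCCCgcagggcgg
NFKBIZ: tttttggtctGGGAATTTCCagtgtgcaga

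After HDL NP treatment the core NF-κB genes lay on both sides of the PBS control, with NFKBIA as the one that stood furthest from it. No member passed an adjusted p under 0.05 in limma, where 0.407% of all genes tested did (42 genes, against 4 to 8 without any 1 array other than HDL NP replicates 1 and 2, and 52 and 124 without those). With each gene read by its brightest probe, limma gave 1 member at an unadjusted p under 0.05. It was NFKBIA, which was lower, beside 15.4% of all genes. A second REL probe also passed that p, as given below. The methods' t-test gave RELB and NFKBIA at that p, both lower, and 0 members after Benjamini-Hochberg adjustment. The share of all genes at that p is not given for that test, so its count of members has no background beside it. In limma RELB had an unadjusted p of 0.21 against PBS. The study's rule is a fold over 1.5 with an unadjusted p under 0.05, taken here from limma. By it 0 members were called, against 2.52% of all genes. Over the 10 members the median log2 fold change was 0.02 (−0.51 to 0.19), with 5 above 0 and 5 below. The median of all genes was 0.03, with quartiles at −0.13 and 0.18.

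**Figure D1:**
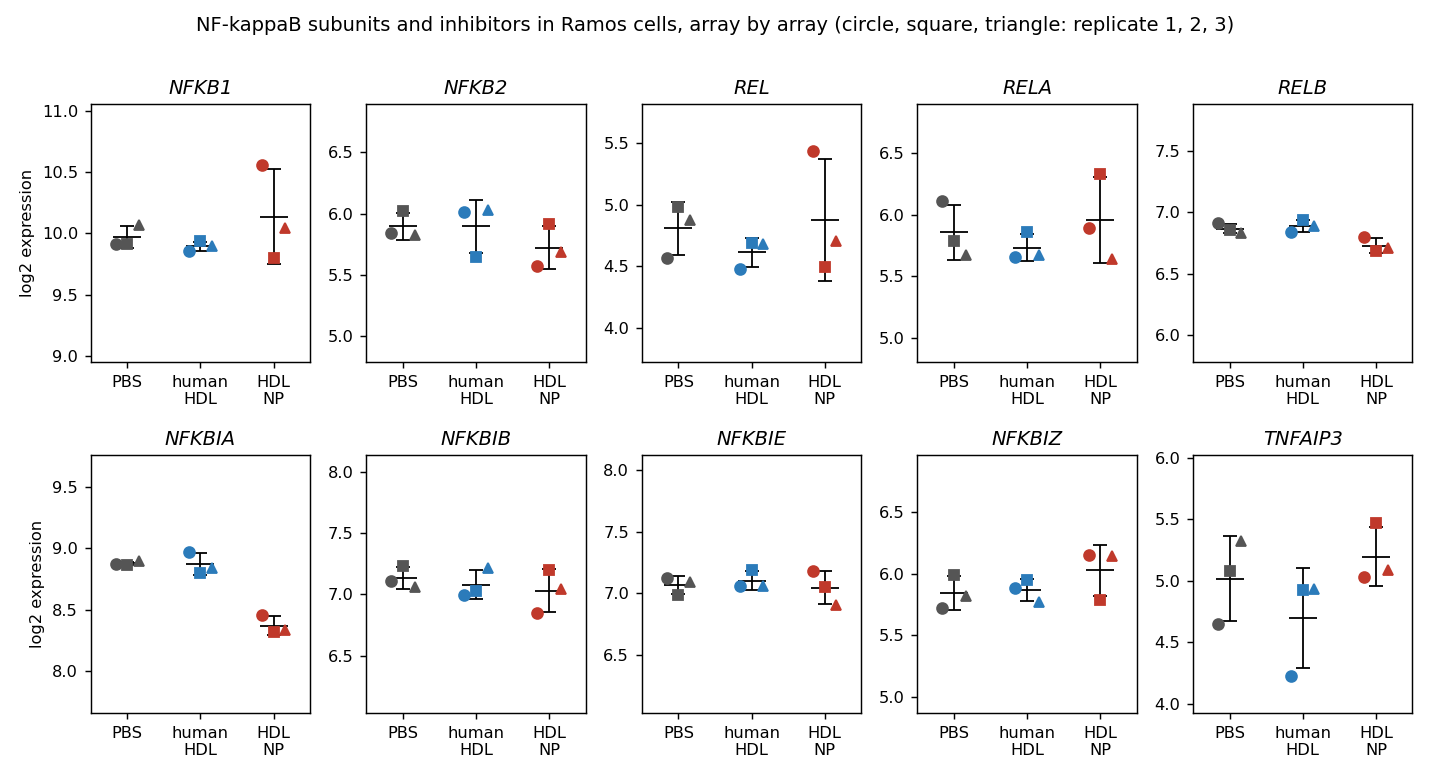
Log2 expression of the 10 members on each array (vertical axes, each spanning the same number of log2 units) after PBS, human HDL and HDL NPs, with 3 arrays per group; black bars are the mean and SD. The 3 HDL NP arrays of NFKBIA sit between 8.32 and 8.46, below the PBS arrays at 8.87 to 8.89, while the groups of most other members overlap, and HDL NP replicate 1 lies highest for NFKB1 and REL.

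NFKBIA encodes IκBα, the inhibitor that retains the p50-RelA dimer in the cytoplasm. Its log2 expression was 8.87, 8.87 and 8.89 on PBS arrays 1 to 3, 8.97, 8.79 and 8.84 on human HDL arrays 1 to 3, and 8.46, 8.32 and 8.33 on HDL NP arrays 1 to 3. All 3 HDL NP arrays lay below all 6 others, and the PBS and human HDL arrays overlapped. In bulk RNA, fewer cells with the transcript and less of it per cell cannot be told apart. Groups that do not overlap were seen for 2 members against PBS, RELB and NFKBIA, both lower, beside 20.2% of all genes. NFKBIA was at 8.88 ± 0.01 (SD, n = 3) after PBS and at 8.37 ± 0.08 (SD, n = 3) after HDL NPs, a log2 fold change of −0.51 (standard error 0.11, 95% interval −0.75 to −0.27) or 1.42-fold lower. Its adjusted p was 0.071 in limma (unadjusted p = 0.00057), the 81st smallest of 10307, and the exact two-sided permutation p was 0.1, the smallest that 3 arrays against 3 can give. Against human HDL, NFKBIA was at −0.50 (standard error 0.11, adjusted p = 0.070 in limma).

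The call on NFKBIA turned on the processing. Against PBS it passed the adjusted threshold in limma with no background correction (−0.41, adjusted p = 0.017), with an offset of 50 in place of 16 (−0.47, adjusted p = 0.021), with no filter on dim probes (−0.51, adjusted p = 0.038), with array weights (−0.54, adjusted p = 0.0038) and without HDL NP replicate 1 (−0.55, adjusted p = 0.044). Under median scaling in place of quantiles it was at −0.45 (adjusted p = 0.59 in limma), and 2 of the 3 HDL NP arrays lay below the PBS arrays. There NFKBIA was at 0.05, −0.79 and −0.59 from the PBS mean on HDL NP arrays 1 to 3, while the median gene was at 0.45, −0.17 and −0.03. Measured from the median gene of the same array, NFKBIA was at −0.40, −0.62 and −0.56, lower on all 3. The raw intensity of its probe was 570, 344 and 379 on those arrays and 535, 622 and 486 on PBS arrays 1 to 3, so before any normalization HDL NP replicate 1 lay within the PBS range.

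**Figure D2:**
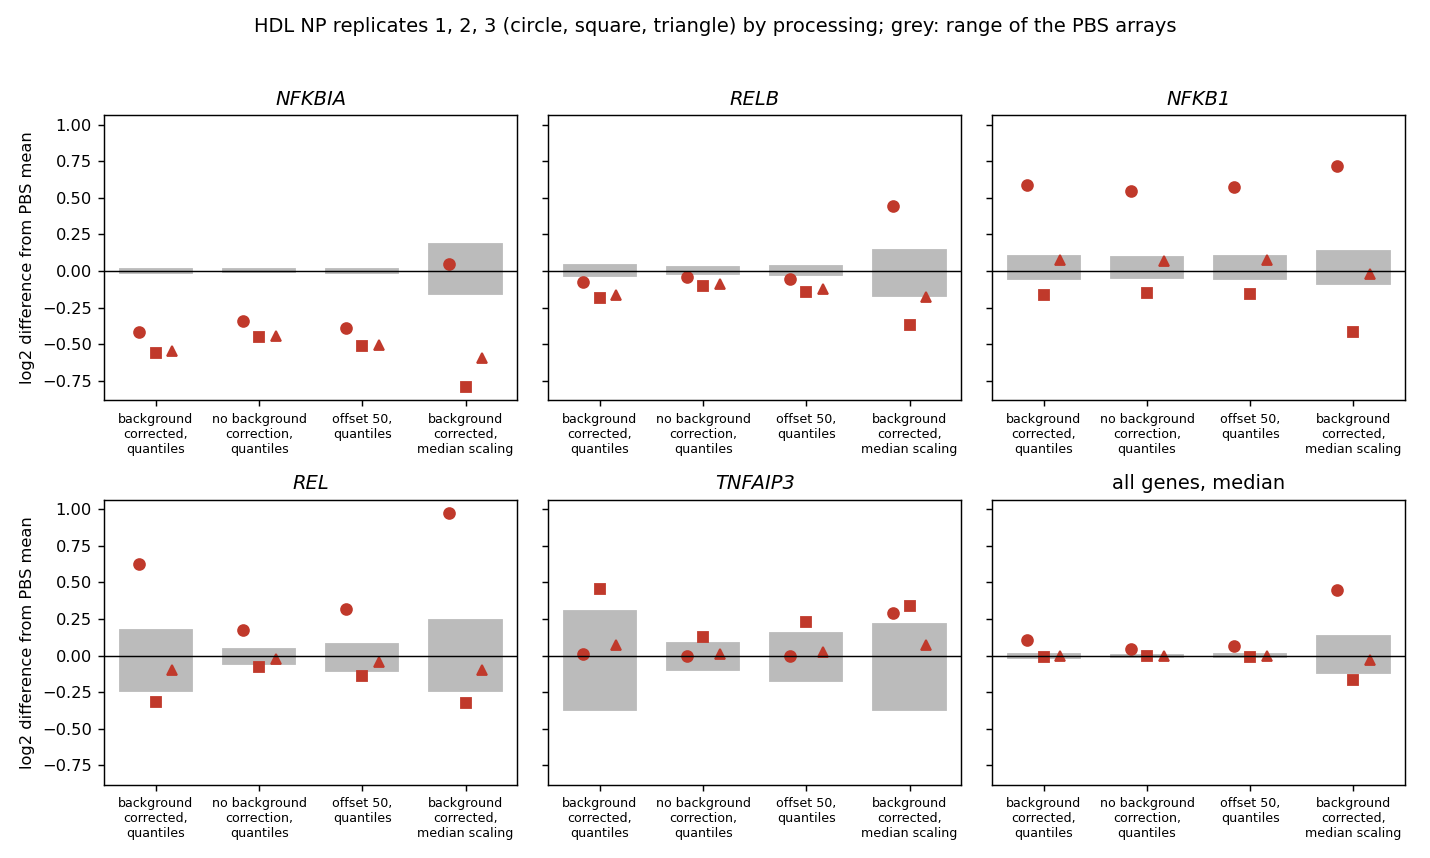
Log2 difference of each HDL NP array from the PBS mean (vertical axis) for 5 members and for the median of all genes, under 4 ways of processing the intensities (horizontal axis); grey boxes are the range of the 3 PBS arrays. NFKBIA lies below the PBS range on all 3 arrays under quantile normalization, and under median scaling replicate 1 moves to 0.05 as the median gene moves to 0.45.

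Of the other inhibitors, none passed the test against PBS after HDL NPs. NFKBIB encodes IκBβ, and was at 7.13 ± 0.09 (SD, n = 3) after PBS and 7.03 ± 0.17 (SD, n = 3) after HDL NPs, a log2 fold change of −0.10 (95% interval −0.38 to 0.17). Without HDL NP replicate 1 the value was −0.01, and a second probe for it gave −0.19 (95% interval −0.53 to 0.15). NFKBIE, which encodes IκBε, was at 7.07 ± 0.07 and 7.05 ± 0.14 (SD, n = 3 each), a log2 fold change of −0.02 (95% interval −0.28 to 0.23) that was 0.09 under median scaling, where the median of all genes was at 0.09 as well. The intervals of both genes exclude a 1.5-fold difference in either direction, and all 3 of their groups overlapped.

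NFKBIZ encodes the nuclear protein IκBζ, which acts with p50 on a subset of target genes and does not retain dimers in the cytoplasm. With each gene read by its brightest probe, it had the highest log2 fold change of the 10 members against PBS. The value was 0.19 (95% interval −0.11 to 0.48, adjusted p = 0.51 in limma). Its log2 expression was 5.72, 5.99 and 5.82 on PBS arrays 1 to 3 and 6.15, 5.79 and 6.14 on HDL NP arrays 1 to 3. Replicates 1 and 3 of HDL NP lay above all PBS arrays and replicate 2 lay among them, so the groups overlapped.

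TNFAIP3 encodes A20, which removes activating ubiquitin chains upstream of IKK. Its probe is dim and was above background on 8 of 9 arrays, human HDL replicate 1 being the exception, with an intensity of 86.5 against 98.4 to 116 on the others. Log2 expression was 4.65, 5.08 and 5.33 on PBS arrays 1 to 3, 4.22, 4.93 and 4.94 on human HDL arrays 1 to 3, and 5.03, 5.47 and 5.09 on HDL NP arrays 1 to 3. The HDL NP arrays overlapped the PBS arrays and lay above every human HDL array. Against PBS its log2 fold change was 0.18 (95% interval −0.30 to 0.65), and against human HDL it was 0.50 (95% interval 0.03 to 0.98, unadjusted p = 0.040, adjusted p = 0.28 in limma). Without human HDL replicate 1, where the gene was not detected, the latter was 0.27 (unadjusted p = 0.22 in limma).

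Among the subunits, NFKB1 and REL, each read by its brightest probe, had 1 array that lay apart. NFKB1 encodes p105, the precursor of p50, and was at 9.92, 9.91 and 10.07 on PBS arrays 1 to 3, 9.86, 9.93 and 9.90 on human HDL arrays 1 to 3, and 10.56, 9.80 and 10.05 on HDL NP arrays 1 to 3. Only HDL NP replicate 1 was above the PBS arrays, and replicate 2 was below them. The log2 fold change against PBS was 0.17 (95% interval −0.19 to 0.53, adjusted p = 0.63 in limma), and −0.04 without HDL NP replicate 1.

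REL encodes c-Rel, the subunit most closely tied to lymphoid cells. Its brightest probe was above background on 7 arrays and gave 4.57, 4.98 and 4.88 on PBS arrays 1 to 3, 4.48, 4.69 and 4.68 on human HDL arrays 1 to 3, and 5.44, 4.49 and 4.71 on HDL NP arrays 1 to 3. As with NFKB1, HDL NP replicate 1 was the highest of the 9 arrays. The log2 fold change against PBS was 0.07 (95% interval −0.38 to 0.52), −0.21 without HDL NP replicate 1 and −0.06 with array weights. A second REL probe, above background on 4 arrays only, was at 5.27, 4.42 and 5.07 on HDL NP arrays 1 to 3. It was between 4.35 and 4.61 on the PBS arrays, so that here HDL NP replicates 1 and 3 were high. Its log2 fold change was 0.41 (95% interval 0.0002 to 0.83, unadjusted p = 0.0499, adjusted p = 0.39 in limma over all kept probes).

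With each gene read by its brightest probe, HDL NP replicate 1 was thus the array that lay apart for NFKB1 and REL. On that array NFKB1 and REL were 0.59 and 0.63 above the PBS mean, the only members more than 0.5 log2 units from it, where 24.5% of all genes were that far. On HDL NP replicates 2 and 3 NFKBIA alone of the 10 members lay more than 0.5 from the PBS mean, where 3.67% and 4.34% of all genes did. What set HDL NP replicate 1 apart was not tested.

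RELA, which encodes the transactivating partner of p50 in the classical dimer, was at 6.11, 5.79 and 5.67 on PBS arrays 1 to 3 and at 5.90, 6.34 and 5.64 on HDL NP arrays 1 to 3. Each group covered much of the range of the other, and the log2 fold change was 0.10 (95% interval −0.28 to 0.48), with −0.16 under array weights. HDL NP replicate 2 was the highest array for this gene, 0.48 above the PBS mean.

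RELB and NFKB2 encode the RelB and p100/p52 proteins of the alternative pathway, which runs from CD40 and the BAFF receptor through the kinase NIK. RELB was at 6.91, 6.86 and 6.83 on PBS arrays 1 to 3, 6.84, 6.94 and 6.89 on human HDL arrays 1 to 3, and 6.80, 6.68 and 6.71 on HDL NP arrays 1 to 3. All 3 HDL NP arrays were lower than all 6 others, narrowly so at HDL NP replicate 1 and PBS replicate 3. The log2 fold change against PBS was −0.14 (95% interval −0.37 to 0.09, adjusted p = 0.53 in limma), −0.17 without HDL NP replicate 1 and −0.03 under median scaling, where the arrays overlapped. NFKB2 was at 5.90 ± 0.11 after PBS and 5.72 ± 0.18 after HDL NPs (SD, n = 3 each) by its brightest probe and had a log2 fold change of −0.17, which was −0.09 without HDL NP replicate 1, and its second kept probe gave −0.19. Neither NFKB2 value passed the test.

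**Figure D3:**
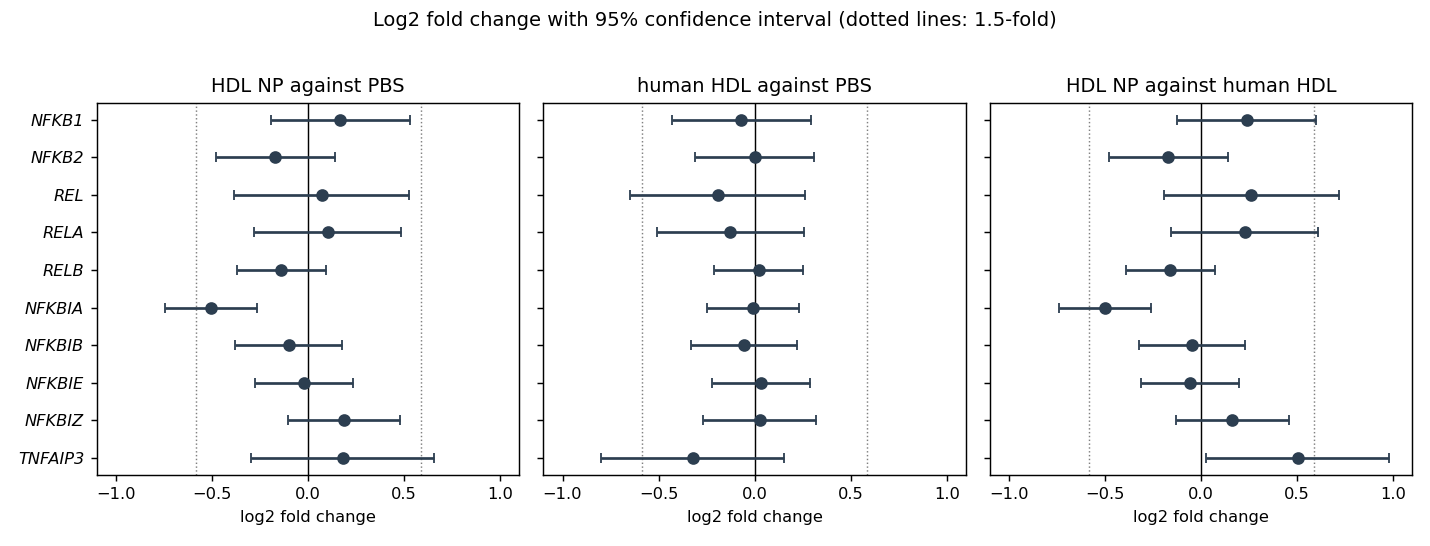
Log2 fold changes of the 10 members with 95% confidence intervals from limma (horizontal axis) in the 3 comparisons; dotted lines mark 1.5-fold. Each gene is shown by its brightest probe. Only NFKBIA and TNFAIP3 have intervals that leave out 0, and neither passed the adjusted threshold. NFKBIA is at −0.51 and −0.50 in the comparisons with HDL NPs, and TNFAIP3 at 0.50 against human HDL.

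Native HDL gave no call among the members against the PBS control. After human HDL 0 members passed the adjusted threshold in limma, as did 0% of all genes, and 0 members had an unadjusted p under 0.05 by limma or by the methods' t-test, beside 2.31% of all genes by limma. No member met the study's rule (0.0388% of all genes) or had groups that did not overlap (9.18% of all genes). Log2 fold changes ran from −0.32 for TNFAIP3 (95% interval −0.80 to 0.15), which was −0.09 without the array on which it was undetected, to 0.04 for NFKBIE, which was −0.06 under median scaling, where the median of all genes was at −0.07. NFKBIA was at −0.01 (95% interval −0.25 to 0.23), an interval that leaves out a 1.5-fold difference. The second NFKB2 probe was at −0.26 (95% interval −0.53 to 0.02), with every human HDL array below every PBS array, while its brightest probe was at 0.00.

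Set against human HDL at the same dose, HDL NPs gave 0 adjusted calls among the members in limma (0.592% of all genes) and 0 by the study's rule (2.98% of all genes). At an unadjusted p under 0.05 limma gave NFKBIA, which was lower, and TNFAIP3, which was higher, beside 16.4% of all genes. The methods' t-test gave RELB and NFKBIA at that p, and 0 members after adjustment. Here too the share of all genes at that p is not given for that test, and RELB had an unadjusted p of 0.16 in limma. Arrays did not overlap for 3 members, RELB and NFKBIA lower and TNFAIP3 higher, beside 22.6% of all genes. RELB was at −0.16 (95% interval −0.39 to 0.07), and at 0.04 under median scaling, where the median of all genes was at 0.15. Both comparisons of HDL NPs use the same 3 HDL NP arrays, so NFKBIA at −0.51 against PBS and −0.50 against human HDL are not independent measurements. Without human HDL replicate 2, human HDL replicate 3 or HDL NP replicate 1, TNFAIP3 met the study's rule, with log2 fold changes of 0.62, 0.62 and 0.58. The last of these lay at the edge of the 1.5-fold cut. Each of these settings keeps human HDL replicate 1, where TNFAIP3 was not detected, and without that array it was at 0.27.

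Both remaining probes were too dim to test. The third NFKB2 probe was above background on 0 arrays, with intensities between 84.9 and 94.6. The second NFKBIZ probe was above background on 2 arrays, PBS replicate 2 and HDL NP replicate 1, and its intensities were 91.4, 107, 91.1, 90.8, 96.1, 94.2, 101, 93.5 and 91.1 on PBS 1 to 3, human HDL 1 to 3 and HDL NP 1 to 3 in turn. For 3 members with several kept probes, NFKB2, REL and NFKBIB, the second probe kept the sign of the brightest in HDL NP against PBS.

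Around the members, 106 further genes of the pathway were listed and 79 were measured. None passed the adjusted threshold in limma in any comparison. At an unadjusted p under 0.05, 9 were higher and 5 lower after HDL NPs than after PBS (17.7%, beside 15.4% of all genes), 1 had such a p in human HDL against PBS (MAP3K14, higher), and 12 had one in HDL NP against human HDL (15.2%, beside 16.4%). The study's rule gave 1 gene against PBS, CD70, and 3 against human HDL, CD70, COMMD1 and IL10, all named after their values were seen. The smallest adjusted p was that of IL10.

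Upstream of the members, the kinase complex that releases NF-κB from IκB showed log2 fold changes against PBS near 0: CHUK was at 0.08, IKBKB at −0.02, its scaffold IKBKG (NEMO) at 0.13 and MAP3K14, which encodes NIK, at 0.07. Of 9 measured genes in that list, 1 was higher at an unadjusted p under 0.05 by limma, beside 15.4% of all genes. It was TBK1 at 0.35, named after its values were seen, with 0.18 and an unadjusted p of 0.12 in limma without HDL NP replicate 1. MALT1, among the adaptors and ubiquitin ligases, encodes a protease of B cell receptor signaling. It was at 0.28 against PBS (adjusted p = 0.31 in limma) and 0.52 against human HDL (adjusted p = 0.086 in limma). BCL10 was at 0.08, TRAF5 at −0.15 and TRAF6 at 0.01 against PBS. Without HDL NP replicate 1 BCL10 was at 0.31, TRAF5 at −0.22 and TRAF6 at −0.19. The 6 measured genes of IκB degradation held 0 with an unadjusted p under 0.05 by limma, beside 15.4% of all genes, and 0 adjusted calls. BTRC was at 0.06, FBXW11 at 0.11, CUL1 at 0.26 (0.04 without HDL NP replicate 1) and SKP1 at −0.06. The list of other IκB-like proteins and negative regulators had 14 measured genes. In it BCL3 was at −0.06, the deubiquitinase CYLD at 0.26, the A20-binding TNIP1 at 0.28 and TRAF3, which keeps NIK low, at −0.03. COMMD1, which promotes turnover of RelA and was named after its values were seen, was at −1.20, −0.11 and −0.34 from the PBS mean on HDL NP arrays 1 to 3, a log2 fold change of −0.55 (adjusted p = 0.28 in limma), and −0.22 without HDL NP replicate 1.

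**Figure D4:**
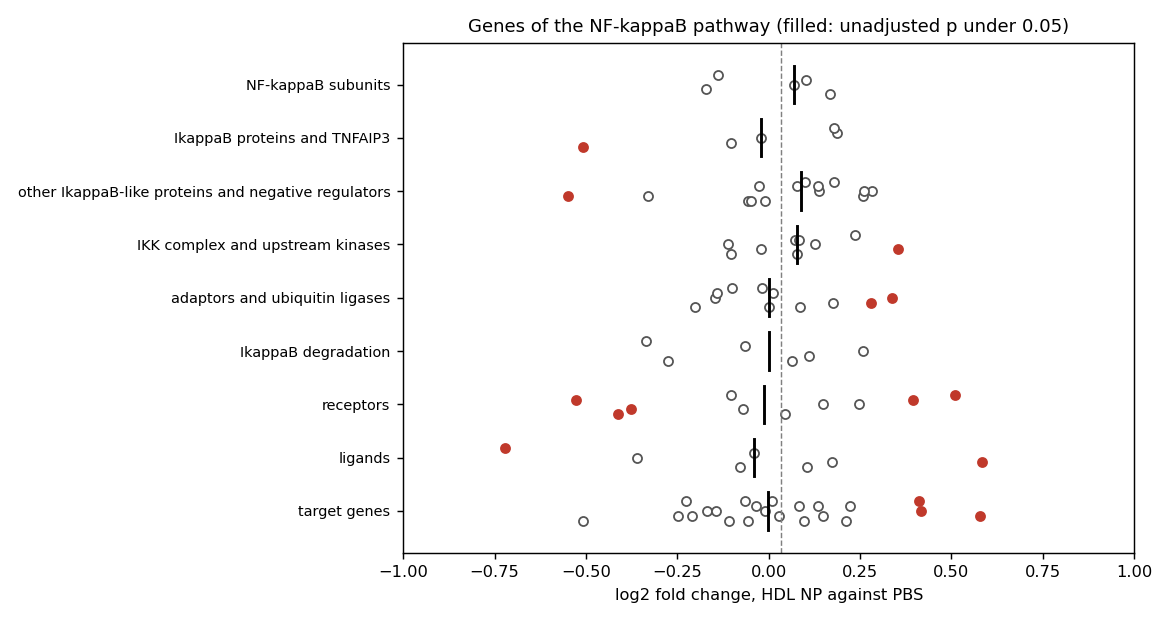
Log2 fold change in HDL NP against PBS (horizontal axis) of each measured gene of the 2 member groups and 7 pathway lists (rows); black bars are list medians, the dashed line is the median of all genes at 0.03, and filled points have an unadjusted p under 0.05 in limma. Points lie on both sides of 0 in every list, and none passed the adjusted threshold.

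The receptor list held the most genes with an unadjusted p under 0.05, and 3 of those were lower receptors of the TNF family. CD40, the receptor of T cell help, was at 6.14, 5.94 and 5.92 on PBS arrays 1 to 3 and 5.80, 5.85 and 5.12 on HDL NP arrays 1 to 3, a log2 fold change of −0.41 (adjusted p = 0.32 in limma). The BAFF receptor TNFRSF13C was at −0.38 (adjusted p = 0.31 in limma). TACI, encoded by TNFRSF13B, was at 6.75, 6.49 and 6.77 on PBS arrays 1 to 3 and 5.85, 6.38 and 6.19 on HDL NP arrays 1 to 3, a log2 fold change of −0.53 (adjusted p = 0.14 in limma). In these 3 receptors every HDL NP array was below every PBS array, as for 20.2% of all genes in one direction or the other. TNFRSF1A, which binds TNF, was at 0.15, and the Toll-like receptors TLR7 and TLR10, named after their values were seen, were higher at 0.40 and 0.51. Without HDL NP replicate 1 TLR7 and TLR10 were each at 0.27. In that setting CD40 was at −0.52 and TNFRSF13B at −0.38 (unadjusted p = 0.022 and 0.0080 in limma). TNFRSF13C was then at −0.34, with an unadjusted p of 0.079 in limma. Of the 10 measured receptors, 2 were thus higher and 3 lower than after PBS at an unadjusted p under 0.05 by limma, beside 15.4% of all genes. Against human HDL 2 were higher and only 1 lower at that p, beside 16.4% of all genes.

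Ligands and target genes showed no common direction. TNF was at 0.10, lymphotoxin alpha (LTA) at 0.17, LTB at −0.36 (0.17 without HDL NP replicate 1) and BAFF (TNFSF13B) at −0.04 against PBS. CD70 and TNFSF14, named after their values were seen, lay furthest out, at −0.72 (adjusted p = 0.25 in limma) and 0.58 (adjusted p = 0.13). CD70 met the study's rule, and its differences from the PBS mean were −1.54, −0.25 and −0.37 on HDL NP arrays 1 to 3, so replicate 1 was the lowest. Without that array CD70 was at −0.31 and no longer met the study's rule against either control, nor did COMMD1 against human HDL, while IL10 and TNFSF14 met it against PBS and IL10 against human HDL. The methods' t-test in place of limma left 0 of these pathway genes within the rule against PBS.

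Of 22 measured target genes, 3 were higher and 0 lower at an unadjusted p under 0.05 by limma, beside 15.4% of all genes, with a list median of 0.00. The anti-apoptotic gene BCL2A1 was at −0.06, CD83 at 0.03, the caspase-8 regulator CFLAR at 0.08 and the adhesion molecule ICAM1 at 0.42 (adjusted p = 0.25 in limma). IL10, an immunosuppressive cytokine named after its values were seen, was at 8.01, 8.04 and 8.06 on PBS arrays 1 to 3, 8.0, 8.01 and 8.04 on human HDL arrays 1 to 3, and 8.37, 8.56 and 8.91 on HDL NP arrays 1 to 3. Its HDL NP arrays lay above all others, with log2 fold changes of 0.58 against PBS (adjusted p = 0.090 in limma) and 0.60 against human HDL (adjusted p = 0.082 in limma). Thus IL10 was higher while NFKBIA, also a target gene, was lower on the same arrays. Without HDL NP replicate 1, IL10 passed the adjusted threshold against both controls.

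Members were also compared for how alike they were over the 9 arrays, as a description in which the points share arrays and normalization. NFKB1 and REL had a Pearson r of 0.90 over 9 arrays and 0.60 over the 8 without HDL NP replicate 1. RELB and NFKBIA had 0.84 over 9 arrays and 0.85 over 8. Both were lower on every HDL NP array than on every other array. Each r, here and below, takes in such a difference between groups, and likeness within a group was not tested. The 3 genes most like NFKBIA were ID1 (r = 0.98), TFB1M (r = 0.96) and ACAT1 (r = 0.96), among 32 genes with r over 0.9. ID1, an inhibitor of helix-loop-helix transcription factors, had a log2 fold change of −2.25 in HDL NP against PBS (adjusted p = 2.1e-06 in limma), whereas TFB1M at −0.31 and ACAT1 at −0.33 did not pass the test. Those most like NFKBIZ were ZNF281 (r = 0.95), MBNL3 (r = 0.94) and PLAG1 (r = 0.92).

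Genes with and without the κB consensus in a promoter window were set side by side as a description. The 731 tested genes with it had a median log2 fold change of 0.04 in HDL NP against PBS, and the 7603 without it 0.04 as well. An unadjusted p under 0.05 in limma was reached by 15.0% of the former and 15.3% of the latter. The shares were 3.69% and 2.01% in human HDL against PBS, and 15.5% and 16.5% in HDL NP against human HDL. Among the 7 members with the consensus, each read by its brightest probe, it was reached in the comparisons with HDL NPs by NFKBIA, and by TNFAIP3 against human HDL only.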

How the data were processed

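RNA of 9 Ramos samples was measured on Illumina HT-12 arrays. The authors deposited bead intensity values, neither background corrected nor normalized, with a detection p-value for each probe and array. The array normalization is not given in the sources used here. Calls on the arrays took a fold over 1.5 and a p threshold of 0.05, and the statistics text, written for all experiments together, lists Student's test and analysis of variance without tying either to the arrays. A second deposited table, of unstated unit, was not used as expression.

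Intensities were processed with limma 3.58.1 (R 4.3.3) by neqc, which took negative controls from the detection p, applied normexp with an offset of 16, then quantile normalization and log2. A probe had to be detected (p under 0.05) on at least 3 arrays of 9, and a gene's value is that of its brightest remaining probe. Symbols came from the array annotation. A single model of condition was fitted to all 9 arrays (lmFit, eBayes), with Benjamini-Hochberg adjustment over 10307 genes. The fit was checked on simulated data. The number of arrays limits the precision. Members and lists were chosen with earlier results of these data known. Named genes are the members, the first 4 measured genes of each list and the 3 genes most like the highest and lowest member; others are marked. Promoters were scanned with Python.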

Additional observations from a re-analysis of the deposited data

How the results depend on the processing

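All 10 members stayed without an adjusted call in the 3 comparisons under every alternative except for NFKBIA. The count of members called was 1 in place of 0 in both comparisons with HDL NPs with no background correction, an offset of 50, no filter and array weights, and leaving out single arrays gave 0 to 1, the 1 being without HDL NP replicate 1. Against human HDL, the adjusted p of NFKBIA was then 0.018, 0.019, 0.046 and 0.0023 under the 4 settings and 0.52 under median scaling. Higher and lower calls over all 10307 genes against human HDL were 70 and 16 with no background correction and 82 and 12 with an offset of 50. With no filter they were 39 and 7 of 20046 genes, and 33 and 6 against PBS. The pathway genes called against PBS numbered 6 with array weights (whose estimation stopped short of its tolerance) and 0 to 1 without single arrays, and those called against human HDL 10 and 0 to 2. With array weights 533 of all 10307 genes were called higher and 330 lower against PBS. Against human HDL 680 were called higher and 448 lower in that setting. Members past the study's rule in HDL NP against human HDL numbered 0 to 1 without single arrays.

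Under median scaling the median of all genes was 0.087 for HDL NP and −0.065 for human HDL relative to PBS, and 0.15 for HDL NP relative to human HDL. It turned small values of uncalled members. For human HDL relative to PBS these were NFKB2 (−0.077), RELB (−0.069), NFKBIE (−0.056) and NFKBIZ (−0.052), for HDL NP relative to PBS NFKBIE (0.088), and for HDL NP relative to human HDL RELB (0.036), NFKBIB (0.14) and NFKBIE (0.14). Array weights turned REL (−0.064) and RELA (−0.16) for HDL NP relative to PBS. For human HDL relative to PBS the mean of probes turned NFKB2 (−0.13), and the other probe turned NFKB2 (−0.26) and REL (0.046). The other probe turned NFKB2 (0.069) and NFKBIB (0.0042) for HDL NP relative to human HDL. Measured from the median gene, median scaling kept the sign of the fit as reported for RELB (−0.11), NFKBIB (−0.0018) and NFKBIE (−0.0016) for HDL NP relative to human HDL and for NFKBIE (0.0091) and NFKBIZ (0.013) for human HDL relative to PBS. For the other turned values the cause was not tested.

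Leaving out single arrays turned the sign of uncalled members within these ranges. For HDL NP relative to PBS they were −0.043 to 0.33 for NFKB1, −0.21 to 0.26 for REL, −0.088 to 0.26 for RELA, −0.089 to 0.048 for NFKBIE and −0.0059 to 0.33 for TNFAIP3. For human HDL relative to PBS they were −0.068 to 0.13 for NFKB2, −0.059 to 0.028 for NFKBIA, −0.0087 to 0.065 for NFKBIE, −0.037 to 0.099 for NFKBIZ, −0.22 to 0.00046 for RELA and −0.0022 to 0.045 for RELB. For HDL NP relative to human HDL they were −0.017 to 0.46 for REL, −0.13 to 0.041 for NFKBIB and −0.12 to 0.012 for NFKBIE.

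The replicate numbers are not stated to mark a shared batch. Arrays of one number correlated in their deviations at −0.08 to 0.17, over 0.1 in 4 of 9 pairs, and arrays of different numbers at −0.14 to 0.09, over 0.1 in 0 of 18, so the numbers were not taken as pairs, which would need all 9 over 0.1. With the replicate block NFKBIA against PBS stayed at −0.51 (adjusted p = 0.096 in limma), no member was called, TNFAIP3 against human HDL had an unadjusted p of 0.0075 (adjusted p = 0.16 in limma) in place of 0.040, and calls over all genes went from 42 (38 higher, 4 lower) to 13 (10 higher, 3 lower). Higher and lower calls over all genes in that comparison were 533 and 330 with array weights, 86 and 24 with no background correction, 99 and 21 with an offset of 50, 24 and 4 with the mean of probes, 2 and 2 with only the groups compared, 0 and 2 under median scaling and 0 and 1 by the methods' t-test. Without single arrays they totalled 4 to 124 against PBS and 4 to 218 against human HDL, the highest being without HDL NP replicate 2, followed by 52 and 74 without HDL NP replicate 1. With detection required on all 9 arrays REL and TNFAIP3, which have dim probes, were not measured. The values per array under each setting and the correlations and pathway genes without HDL NP replicate 1 were chosen after seeing the data.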
